A study of Homo sapiens with 12 samples.

Results

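OE19 is an established human adenocarcinoma line of the oesophagogastric junction that carries an amplified ERBB2 gene, which encodes the receptor tyrosine kinase HER2. The comparison described here sets OE19 cells that had survived 14 days of lapatinib against the starting pool from which they were grown, and asks which knockouts were lost and which took over under the drug. It uses 4 of the 12 libraries of a pooled knockout screen run in OE19 and N87 gastric cancer cells: lapatinib replicates 1 and 2, and baseline replicates 1 and 2. All sgRNAs of the count table were kept as members, which gave 123411 sgRNA entries for 20915 gene names, most of them (18938) with 6 sgRNAs each, and 2000 of these entries were control guides that target no gene.

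All cells carried the GeCKO v2 library in the lentiCRISPR v2 vector, which brings Cas9 and 1 guide into a cell on the same virus, at an MOI of about 0.3. OE19 cells were selected with puromycin at 1.5 µg/mL for 7 days, and N87 cells at 0.75 µg/mL. The treated cells then received 1 µM lapatinib for 14 days and the survivors were collected. The vehicle cells received the same volume of DMSO for 14 days, and the baseline cells were harvested straight after puromycin, with no drug. The study describes 2 separate infections of the line, without tying the replicate numbers to them. A baseline library has had no further growth, so a loss from baseline to lapatinib holds both the growth of 14 days and the drug. The vehicle libraries are therefore given beside it, and the test of lapatinib against vehicle stands for the difference.

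In such a screen each cell loses 1 gene. A guide against a gene that the cells need falls in abundance as the cells divide, and a guide against a gene that holds the cells back, or that the drug needs in order to kill, rises. Lapatinib blocks the kinase activity of HER2 and of EGFR, and thereby the Ras-MAPK and PI3K-AKT signalling below them.

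The lapatinib libraries held 13105805 and 16378926 counts, the vehicle libraries 28801106 and 18428467 counts, and the baseline libraries 23851874 and 24780798 counts. sgRNAs with a count of 0 numbered 900 and 209 with lapatinib, 160 and 78 with vehicle, and 36 and 32 at baseline. After every library was thinned to the smallest total they numbered 900 and 255, 266 and 109, and 71 and 55 in the same order of conditions. The guides against CSK alone took 7.21% and 4.01% of the lapatinib libraries. The lapatinib replicates also scattered more widely. Control guides had log2 fold changes with an SD of 0.61 for lapatinib over baseline, against 0.21 for vehicle over baseline. Across 1000 control guides, the change from baseline in one lapatinib replicate correlated with that in the other with r = 0.68, against r = 0.01 for the vehicle replicates. This r is a description over guides that share their libraries. Changes of guides without a target gene were thus in part shared by both lapatinib libraries. Whether these libraries are independent replicates was not tested, and every p-value with lapatinib treats them as such. In addition, 21 of the 1996 control entries tested (1.05%) passed the sgRNA test. The gene results below combine the guides of a gene by rank, and a few strongly changed guides can suffice for a call. Whether the shared changes contribute to gene calls was not tested.

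Of 122367 sgRNAs with at least 40 counts over the 4 libraries, 1469 (1.2%) were higher and 141 (0.115%) lower with lapatinib than at baseline (edgeR quasi-likelihood test, adjusted p under 0.05). A similar share of the control entries, 1.05%, passed this test, against 0 of 2000 for vehicle over baseline. The sgRNA counts with lapatinib therefore do not by themselves show effects of knockouts. sgRNA p-values were then combined by robust rank aggregation into a p for each of 20893 genes and each direction. At the gene level 19 genes (0.0909% of those tested) were enriched and 19 (0.0909%) were depleted. The enriched genes had median log2 fold changes between 0.67 and 10.70, and the depleted genes between -1.40 and -0.55, so the gains reached much further than the losses. All 19 enriched genes lay above baseline and all 19 depleted genes below it in both lapatinib libraries, by the median normalized count over their sgRNAs. This order of the libraries held for 28.8% and 27.8% of all genes. The called genes were chosen by the same 4 libraries, so their order is largely set by that choice and carries no test. Orders of all 3 conditions are given below for single genes, and their share over all genes was not counted.

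SRC and its inhibitor moved in opposite directions. SRC encodes the founding member of a family of membrane-bound tyrosine kinases that act below growth factor receptors and integrins, and CSK encodes the kinase that shuts these kinases off by phosphorylating their tail. The guides against SRC had a median of 41.2 and 52.9 normalized counts with lapatinib, 97.4 and 125 with vehicle, and 106 and 113 at baseline. Both lapatinib libraries were thus below all 4 others, and vehicle and baseline overlapped. The median log2 fold change from baseline was -0.88 ± 0.72 with lapatinib (SD over 6 sgRNAs, adjusted p = 0.0328), with 5 of the 6 sgRNAs below 0, and -0.03 ± 0.60 with vehicle (adjusted p = 1). The direct difference from vehicle was -1.10 and did not pass (adjusted p = 0.330). The call was lost without lapatinib replicate 2 (adjusted p = 0.609) and without baseline replicate 1 (adjusted p = 0.0562).

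Single guides against SRC differed. HGLibB_47872 had 31.2 and 29.5 normalized counts with lapatinib, 53.3 and 134 with vehicle, and 99.4 and 116 at baseline. HGLibA_55217 was the exception, with 278 and 366 with lapatinib, 322 and 297 with vehicle, and 273 and 261 at baseline. None of the other 8 Src family members was called. LYN had a median log2 fold change of 0.02, YES1 of -0.01 and FYN of 0.32, and the median over all 9 family members was 0.00, against -0.02 over all genes.

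CSK rose more than any other gene. Its guides had a median of 341714 and 143779 normalized counts with lapatinib, 132 and 150 with vehicle, and 156 and 159 at baseline. Both lapatinib libraries stood far above all others, and all 6 guides rose. The median log2 fold change was 10.70 ± 0.54 (SD over 6 sgRNAs, adjusted p = 1.11e-19) with lapatinib and 0.17 ± 0.28 with vehicle, and the direct difference from vehicle was 10.80 (adjusted p = 9.98e-21). CSK was not called with edgeR's default abundance trend (adjusted p = 1), nor with limma on mean log2 counts (adjusted p = 0.720), although its value stayed at 10.70 and 10.56. PAG1, which anchors CSK at the membrane, had 0.00, and MATK, a CSK-related kinase, had 0.19, and neither was called.

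Genes of the mitochondrial route to cell death were found at both ends. BCL2L1, which encodes the anti-apoptotic protein BCL-XL, had 47.9 and 43.5 normalized counts with lapatinib, 130 and 126 with vehicle, and 157 and 176 at baseline. The 3 conditions did not overlap, and the lapatinib libraries were far below the others. Its median log2 fold change was -1.02 ± 1.60 with lapatinib (adjusted p = 0.0325) and -0.13 ± 0.41 with vehicle (adjusted p = 1), and the direct difference from vehicle was -0.90 (adjusted p = 0.303). The guides of GeCKO library B had a median of -1.81 and those of library A one of 0.09. HGLibB_04300 had 11.1 and 5.36 normalized counts with lapatinib, 99.0 and 73.3 with vehicle, and 111 and 131 at baseline. HGLibA_04302 had 463 and 451 with lapatinib, 454 and 463 with vehicle, and 427 and 423 at baseline. Of 9 anti-apoptotic genes BCL2L1 alone was called. MCL1, a relative of BCL-XL, had -0.69 ± 0.68 (adjusted p = 0.475) and 0.01 with vehicle. The median over the 9 genes was -0.24, against -0.02 over all genes.

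BAX, whose protein opens the outer mitochondrial membrane, had 3769 and 2052 normalized counts with lapatinib, 205 and 192 with vehicle, and 195 and 201 at baseline. Its log2 fold change of 4.05 ± 1.74 (adjusted p = 1.33e-11) was shared by 5 of its 6 guides, and the direct difference from vehicle was 3.90 (adjusted p = 1.62e-08). BCL2L11, which encodes the BAX activator BIM, had 249 and 199 with lapatinib, 163 and 140 with vehicle, and 151 and 143 at baseline, with a log2 fold change of 1.24 ± 1.19 (adjusted p = 0.0124). Of its 6 guides 3 passed the sgRNA test, HGLibA_04307 with 1.95, HGLibA_04309 with 2.18 and HGLibB_04305 with 2.56, and the other 3 lay between -0.10 and 0.52. The call was lost when any 1 of the 4 libraries was left out (adjusted p between 0.217 and 0.514). BMF, another pro-apoptotic gene, had 1.66 ± 0.93 (adjusted p = 0.0522). BAK1, the close relative of BAX, had 0.03 ± 0.78 (adjusted p = 1 for enrichment and 0.823 for depletion). In all, 2 of 16 pro-apoptotic genes were enriched and none was depleted, beside 19 of 20893 genes (0.0909%) in each direction. The median over the 16 genes was 0.08, and 7 of them were below 0.

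KEAP1, the adaptor through which the CUL3 ubiquitin ligase destroys the antioxidant transcription factor Nrf2, was second to CSK. It had 8443 and 5939 normalized counts with lapatinib, 167 and 150 with vehicle, and 164 and 165 at baseline, a log2 fold change of 5.46 ± 1.44 (adjusted p = 1.37e-15) in 6 of 6 guides. Nrf2 itself, encoded by NFE2L2, had 62.4 and 63.6 with lapatinib, 91.4 and 102 with vehicle, and 133 and 135 at baseline, so the libraries lay in that order without overlap. Its log2 fold change of -0.53 ± 0.38 did not pass the test (adjusted p = 0.127). CUL3 had 0.62 ± 0.71 (adjusted p = 1).

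The genes of the TGF-beta pathway, whose receptors phosphorylate SMAD2 and SMAD3 and thereby restrain growth in many epithelia, gave 4 of the 19 enriched genes. TGFBR2, the ligand-binding receptor, had 807 and 468 normalized counts with lapatinib, 160 and 135 with vehicle, and 126 and 149 at baseline (log2 fold change 2.26 ± 1.03, adjusted p = 3.04e-06). SMAD3, the transducer, had 885 and 489 with lapatinib, 118 and 152 with vehicle, and 150 and 152 at baseline (2.08 ± 0.99, adjusted p = 0.000504). TGFBR1, the signalling receptor, had 1.21 ± 0.86 (adjusted p = 0.0332) and the co-receptor TGFBR3 had 1.27 ± 0.52 (adjusted p = 6.57e-05). TGFBR2 and SMAD3 also passed against vehicle, with 2.25 and 2.24, whereas TGFBR1 and TGFBR3 did not (adjusted p = 0.0721 and 0.0934). SMAD2 had -0.03 and SMAD4 0.44, and neither passed. Over the 11 genes of the list, 9 had a median above 0 and the list's median was 0.34, against -0.02 over all genes. Among all genes 52.7% had a median below 0.

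The call of TGFBR1 was lost without lapatinib replicate 1, without lapatinib replicate 2 and without baseline replicate 2, and that of TGFBR3 without lapatinib replicate 2.

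SAGA is a coactivator that acetylates histones at promoters, and its histone acetyltransferase module is held together by the TADA proteins. TADA3 had 481 and 306 normalized counts with lapatinib, 132 and 138 with vehicle, and 157 and 143 at baseline (log2 fold change 1.11 ± 0.44, adjusted p = 0.00142). TADA2B had 390 and 425 with lapatinib, 134 and 154 with vehicle, and 166 and 158 at baseline (1.48 ± 0.68, adjusted p = 0.00344). TADA1, of the core module, had 734 and 465 with lapatinib, 182 and 227 with vehicle, and 245 and 227 at baseline (1.19 ± 0.91, adjusted p = 0.00174). In each of the 3 genes the lapatinib libraries lay above all others, and all 3 passed against vehicle too. A further 6 SAGA genes had an unadjusted p under 0.05 for enrichment, against 1119 of all genes (5.36%), among them TAF5L with 1.34 ± 0.52 (adjusted p = 0.553) and SUPT7L with 0.93 ± 0.51 (adjusted p = 0.794). The acetyltransferases KAT2A and KAT2B had 0.11 and 0.01, and the deubiquitinase USP22 had 0.13. The median over 19 SAGA genes was 0.39 with lapatinib and -0.09 with vehicle. EP300, an acetyltransferase outside SAGA, had 1.10 ± 2.03 (adjusted p = 0.0332). The TADA3 gene overlaps other genes in the annotation, and its call was lost without lapatinib replicate 1, as that of TADA2B was without lapatinib replicate 2. The EP300 call was lost without either lapatinib replicate and without baseline replicate 2.

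LATS2, a kinase of the Hippo pathway that inactivates the growth coactivators YAP and TAZ, had 308 and 177 normalized counts with lapatinib, 75.5 and 92.8 with vehicle, and 72.9 and 69.5 at baseline (log2 fold change 1.13 ± 0.62, adjusted p = 0.000326). It was the 1 called member of 17 Hippo brakes, and the call was lost without lapatinib replicate 2. NF2, which recruits the LATS kinases to the membrane, had 1.54 ± 1.58 (adjusted p = 0.0542), and AMOT, which holds YAP in the cytoplasm, had 1.11 ± 0.52 (adjusted p = 0.0524). Of the 17, 16 had a median above 0, whereas 52.7% of all genes had one below 0. On the other side of the pathway YAP1 had -0.46 ± 0.46 (adjusted p = 0.522), and the median over 6 effectors was -0.27.

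NF1, at chr17:29421945-29709134 on the plus strand of GRCh37, encodes neurofibromin, which switches Ras off. It had 2475 and 1175 normalized counts with lapatinib, 255 and 224 with vehicle, and 207 and 209 at baseline (log2 fold change 3.26 ± 1.87, adjusted p = 6.57e-05). OMG, which codes for a myelin glycoprotein, was also enriched (1.18 ± 0.39, adjusted p = 1.65e-05, 6 of 6 guides above 0). OMG lies at chr17:29599031-29624557 on the minus strand, inside the span of NF1, so its guides also cut within that gene. Whether such cuts alter NF1 or bear on the OMG call was not tested. EVI2B and EVI2A, which lie there too, had 0.72 and 0.42 and were not called (adjusted p = 0.936 and 0.860). The OMG call was lost without either lapatinib replicate, and against vehicle it did not pass (adjusted p = 0.140).

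SLC30A1, which exports zinc across the plasma membrane, had 929 and 617 normalized counts with lapatinib, 133 and 127 with vehicle, and 142 and 134 at baseline (log2 fold change 2.31 ± 0.48, adjusted p = 5.05e-10, 6 of 6 guides above 0). The other 9 zinc exporters were not called, and the median over all 10 was -0.05. FBXL20, an F-box protein gene close to ERBB2 on chromosome 17, had 413 and 302 with lapatinib, 161 and 129 with vehicle, and 159 and 145 at baseline (1.33 ± 0.99, adjusted p = 0.0299). FBXL20 was the 1 called member of 23 genes near ERBB2. The median over these 23 genes was 0.21 with lapatinib and -0.03 with vehicle, and 6 of them were below 0 with lapatinib. An unadjusted p under 0.05 for enrichment was found in 5 of the 23, against 1119 of all genes (5.36%). The FBXL20 call was lost without either lapatinib replicate and without baseline replicate 2. TMEM132E had a smaller change of 0.67 ± 0.50 (adjusted p = 0.00877), and its call was lost without any 1 of the 4 libraries.

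Of the 19 depleted genes, 10 were also depleted in the vehicle cells: TRAPPC8, GPKOW, ASH2L, SOD2, GPX4, PTPMT1, hsa-mir-6087, RFC5, REXO1L1 and SUMO2. For vehicle over baseline 328 of 20894 genes (1.57%) were depleted and 0 were enriched (edgeR with rank aggregation, 1056 genes, 5.05%, with an unadjusted p under 0.05). Both comparisons share the baseline libraries, so the count of shared genes carries no test, and the values are given side by side. SRC, BCL2L1, ILK, C17orf49, TULP4 and NOS1AP had vehicle medians between -0.15 and -0.03, whereas PTPMT1, ASH2L, REXO1L1 and hsa-mir-6087 had lower medians with vehicle over baseline than with lapatinib over baseline. For ASH2L the direct lapatinib over vehicle median was -0.19.

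TRAPPC8, a subunit of a tethering complex of the secretory pathway and autophagy, had the lowest p of the depleted genes. It had 80.2 and 99.1 normalized counts with lapatinib, 101 and 122 with vehicle, and 147 and 157 at baseline (log2 fold change -1.04 ± 0.96, adjusted p = 1.83e-05), with -0.83 for vehicle. GPKOW, a spliceosome-associated protein, had 57.9 and 80.4 with lapatinib, 101 and 96.7 with vehicle, and 175 and 203 at baseline (-1.28 ± 0.84, adjusted p = 6.00e-05). ASH2L, a core subunit of the complexes that methylate histone H3 on lysine 4, had 74.6 and 88.4 with lapatinib, 63.8 and 91.8 with vehicle, and 198 and 193 at baseline (-0.96 ± 0.64, adjusted p = 6.47e-05). The lapatinib and vehicle libraries of ASH2L overlapped, and both lay below baseline. The calls of TRAPPC8 and GPKOW were lost without lapatinib replicate 2.

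SOD2 and GPX4 were depleted under both conditions. SOD2, the superoxide dismutase of mitochondria, had 25.6 and 61.6 normalized counts with lapatinib, 35.5 and 70.4 with vehicle, and 141 and 123 at baseline (log2 fold change -1.40 ± 0.85, adjusted p = 0.00412), against -0.98 with vehicle. GPX4, the selenoenzyme that removes lipid peroxides and prevents ferroptosis, had 80.2 and 100 with lapatinib, 64.1 and 102 with vehicle, and 217 and 222 at baseline (-0.91 ± 0.50, adjusted p = 0.00749, 5 of 5 tested guides below 0). The direct difference from vehicle was -0.07 for GPX4. Of the 9 other genes of selenoprotein synthesis and ferroptosis none was called, and the median over the 10 was -0.22. PTPMT1, a phosphatase of cardiolipin synthesis in mitochondria, had 101 and 90.4 with lapatinib, 60.9 and 56.7 with vehicle, and 158 and 171 at baseline. Its log2 fold change was -0.59 ± 0.75 with lapatinib (adjusted p = 0.00829, lost without lapatinib replicate 2) and -1.43 ± 0.78 with vehicle, and here the vehicle libraries were below those of lapatinib.

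ILK, a scaffold that couples integrins to actin, had 64.6 and 67.0 normalized counts with lapatinib, 118 and 110 with vehicle, and 130 and 132 at baseline. The conditions did not overlap. The log2 fold change was -0.76 ± 0.95 (adjusted p = 0.0325) with lapatinib and -0.07 ± 0.55 with vehicle, and the difference from vehicle of -0.66 did not pass (adjusted p = 0.985). ILK overlaps TAF10 in the annotation. TAF10 had a median of 0.49. Of 22 adhesion genes ILK alone was called, and 16 had a median below 0, beside 52.7% of all genes. Its partners LIMS1 and PARVA had -0.38 and -0.13, ITGB1 had -0.30, and PTK2, the focal adhesion kinase, had -0.59, with adjusted p from 0.324 to 1. The ILK call was lost without either lapatinib replicate.

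A further 10 genes were depleted with lapatinib. DDX46, an RNA helicase of the spliceosome, had -1.16 ± 0.69, WDR33, of the polyadenylation complex, -1.06 ± 0.26, EIF3A, a subunit of the initiation factor eIF3, -0.99 ± 1.37, SUMO2, a ubiquitin-like modifier, -0.96 ± 0.31, and RFC5, a clamp loader subunit, -0.63 ± 0.42. Their adjusted p lay between 0.0325 and 0.0485. In DDX46, WDR33, SUMO2 and RFC5, 6 of 6 guides were below 0, and in EIF3A 5 of 6. No single guide of these genes passed the sgRNA test. C17orf49 (-1.10 ± 1.31, overlapping RNASEK), TULP4 (-0.63 ± 0.72) and NOS1AP (-0.55 ± 0.85) were called with lapatinib and had -0.15, -0.09 and -0.11 with vehicle. REXO1L1 (-0.80 ± 1.00) belongs to a family of near-identical copies, so its guides may cut at several of them, and hsa-mir-6087 (-1.04 ± 0.36) rests on 3 guides. Each of these 10 calls was lost on leaving out at least 1 library: C17orf49 without lapatinib replicate 1, REXO1L1 without lapatinib replicate 2 or baseline replicate 1, NOS1AP without lapatinib replicate 2 or either baseline replicate, and SUMO2 without lapatinib replicate 2 or baseline replicate 2. The calls of DDX46, EIF3A, TULP4, hsa-mir-6087 and RFC5 were lost without either lapatinib replicate or without baseline replicate 2, that of RFC5 without baseline replicate 1 as well, and that of WDR33 without either lapatinib replicate.

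No gene was called lower with lapatinib than with vehicle (0 of 20890, edgeR with rank aggregation; 1121 genes, 5.37%, had an unadjusted p under 0.05), and 15 genes (0.0718%) were called higher. Of the 19 genes enriched over baseline, 13 were also higher than with vehicle. All 19 depleted genes had a vehicle median below 0, beside 46.5% of all genes. A direct lapatinib over vehicle median below 0 was found in 15 of them, and 9846 of 20890 genes in all lay above 0. These comparisons share baseline or lapatinib libraries with the one that chose the genes, so the counts of called genes here carry no test.

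The 328 genes that were depleted with vehicle had a median log2 fold change of -0.80 with vehicle and -0.36 with lapatinib. They were chosen by their vehicle values, and both changes share the baseline libraries, so these medians are a description. Of the 328, 296 were below 0 with lapatinib, beside 52.7% of all genes, 10 passed the test there, and none was called higher with lapatinib than with vehicle. ERBB2, the target of the drug, had 110 and 102 normalized counts with lapatinib, 41.3 and 53.3 with vehicle, and 93.4 and 98.6 at baseline. It was depleted with vehicle (-0.98 ± 0.69, adjusted p = 0.0118) and had 0.03 ± 0.53 with lapatinib (adjusted p = 1), and the direct difference of 0.95 did not pass (adjusted p = 0.969). MYC, a driver of cell growth chosen here after its values were seen, had 137 and 132 with lapatinib, 57.8 and 44.5 with vehicle, and 114 and 128 at baseline. Its log2 fold change was 0.22 ± 0.45 with lapatinib and -1.17 ± 0.49 with vehicle (adjusted p = 4.04e-05 for vehicle, 0.526 for lapatinib over vehicle). For both genes the vehicle libraries stood alone below the others. The other receptors of the family were not called with lapatinib: EGFR had 0.28 ± 1.69, ERBB3, the preferred partner of HER2, -0.31 ± 0.76 (adjusted p = 0.194), and ERBB4 -0.27 ± 0.41.

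Of the lists of general cell machinery described next, EIF3A was the 1 gene called depleted with lapatinib, and differences between lists were not tested. Further machinery lists also lay below 0 with lapatinib. The 45 genes of DNA replication had a median of -0.26, and 1 of them, RFC5, was called depleted. The medians were -0.28 over 53 spliceosome core genes, -0.25 over 12 RNA polymerase II subunits and -0.28 over 18 genes of coatomer and nuclear transport, with none called. The vacuolar ATPase, which acidifies lysosomes, had the lowest list median with lapatinib, -0.47 over 16 genes, all of them below 0, against -0.33 with vehicle. Of the 16, 11 had an unadjusted p under 0.05 for depletion, against 1186 of 20893 genes (5.68%), and none passed after adjustment. ATP6V0C had -1.12 ± 0.87 (adjusted p = 0.264) and ATP6AP1 -0.62 ± 0.92 (adjusted p = 0.117). The chaperonin CCT, which folds actin and tubulin, had -0.40 with lapatinib and -0.35 with vehicle over 8 genes. Translation had -0.30 over 31 initiation factors (-0.41 with vehicle), -0.33 over 20 cytosolic aminoacyl-tRNA synthetases (-0.52 with vehicle) and -0.30 over 79 cytosolic ribosomal proteins (-0.50 with vehicle). RPL24 had 21.2 and 34.8 normalized counts with lapatinib, 53.9 and 43.97 with vehicle, and 92.7 and 98.2 at baseline (-1.66 ± 0.89, adjusted p = 0.0727), and the synthetase subunit FARSB had 33.4 and 56.2 with lapatinib, 53.6 and 54.2 with vehicle, and 103 and 110 at baseline (-0.98 ± 0.61, adjusted p = 0.0522).

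The 7 ribosomal protein paralogues, for most of which another gene encodes the main form, had a median of -0.12 with lapatinib and 0.05 with vehicle, and none was called. The paralogue had the higher median with lapatinib in 5 of the 7 pairs: 0.05 for RPL10L and -0.30 for RPL10, 0.00 for RPL26L1 and -0.48 for RPL26, -0.26 for RPL36AL and -0.32 for RPL36A, 0.14 for RPL39L and -0.20 for RPL39, and -0.12 for RPS27L and -0.54 for RPS27. It had the lower one in 2, with -0.22 for RPL3L and -0.06 for RPL3, and -0.16 for RPL22L1 and 0.15 for RPL22. These differences were not tested.

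The 76 genes of the mitochondrial ribosome had a median of 0.01 with lapatinib and -0.35 with vehicle. An unadjusted p under 0.05 for depletion with lapatinib was found in 1 of the 76, against 1186 of 20893 genes in all (5.68%). It was found in 8 of 74 genes of oxidative phosphorylation and in 2 of 17 mitochondrial aminoacyl-tRNA synthetases. The medians were 0.03 and -0.22 for oxidative phosphorylation, -0.14 and -0.59 for the mitochondrial synthetases and -0.07 and -0.37 for the 32 proteasome genes, with lapatinib and with vehicle. In the direct comparison 65 of the 76 mitochondrial ribosome genes had a higher median with lapatinib than with vehicle, beside 9846 of 20890 genes in all, and none of them was called. As a check, 376 olfactory receptor genes, which these cells should not use, had -0.04 with lapatinib and 0.05 with vehicle.

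The same comparison in N87 cells, treated with 0.5 µM lapatinib, was used to ask where OE19 differed. Drug and puromycin doses were not matched, and the N87 libraries scattered far more, with 60.6% of control entries passing the sgRNA test there. The change from baseline was higher in OE19 than in N87 for 3 of 20893 genes (0.0144%), CSK, KEAP1 and SYS1, and lower for 0 (edgeR interaction term with rank aggregation, 1088 genes, 5.21%, with an unadjusted p under 0.05). CSK had 10.70 ± 0.54 in OE19 and 2.89 ± 0.56 in N87, a difference of 7.86 (adjusted p = 8.63e-13). KEAP1 had 5.46 ± 1.44 in OE19 and 0.68 ± 1.37 in N87, a difference of 4.36 (adjusted p = 1.12e-07). For the depleted genes SRC and BCL2L1 the N87 medians were 0.26 and 0.59, and the difference between the lines did not pass for either. KCTD5, a ubiquitin ligase adaptor that the study followed up, had 401 and 415 normalized counts with lapatinib, 148 and 170 with vehicle, and 151 and 170 at baseline in OE19, a log2 fold change of 0.66 ± 1.82 that was not called (adjusted p = 0.604). In N87 it had 2.63 ± 1.57 and was 1 of the 2 genes enriched (0.00957% of those tested, adjusted p = 0.00591), and the difference between the lines did not pass. The other was TADA1, with 2.47 ± 1.72 in N87 (adjusted p = 1.87e-05) and 1.19 ± 0.91 in OE19. For TADA1 too the difference between the lines did not pass.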

How the data were processed

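The authors deposited whole-number read counts per sgRNA for 12 libraries, made from PCR products of genomic DNA, and the submitters' processing notes name Bowtie2 2.3.2, FastQC 0.11.5 and MAGeCK 0.5.6. The genome build used for the screen is not given in the sources used here. Genomic DNA holds no expression, so the cell line could not be checked by markers. Counts of the 4 libraries were scaled by TMM and tested with edgeR 4.0.16 in R 4.3.3 (quasi-likelihood, 1 dispersion, quasi-dispersion trend on abundance at baseline, sgRNAs with at least 40 counts, 80 for both lines). One-sided p-values were ranked, ranks below 0.05 were combined per gene (at least 2 sgRNAs) by robust rank aggregation, and Benjamini-Hochberg adjustment ran over all genes. The method was run on simulated counts with and without a spread shared by both lapatinib libraries. Pass limits were set only for the run without it, so they do not address the shared changes of control guides reported here. A gene's value is the median log2 fold change over its sgRNAs with the SD over sgRNAs. Normalized counts use median-of-ratios factors over the 6 OE19 libraries. With 2 replicates against 2, an exact two-sided permutation test of a single value cannot go below p = 0.333.

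Genes named are the 20 depleted and 15 enriched of lowest p with 1 sign in both replicate pairs, called members of 43 lists, the EGFR family, genes the study names, ribosomal paralogues with partners, and the 10 of lowest p each way against vehicle. Other list members, SYS1 and the single guides of SRC and BCL2L1 were chosen after their values were seen. Members, lists and tests were chosen with earlier results of these data known. Some genes are not reported here. DESeq2 1.42.0 and limma 3.58.1 served as alternatives. Coordinates are GENCODE genes on GRCh37.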

Additional observations from a re-analysis of the deposited data

Results flagged for a closer look

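The change from baseline with lapatinib was set against that in N87 cells by an interaction term, and 3 genes differed. CSK changed by 7.86 more on the log2 scale in OE19 than in N87 (adjusted p = 8.63e-13), and KEAP1 by 4.36 more (adjusted p = 1.12e-07). SYS1, a Golgi protein chosen after its values were seen, differed by 2.68 (adjusted p = 0.000232), with -0.22 ± 0.42 in OE19 and -2.89 ± 1.31 in N87. The SYS1 guides had 202 and 207 normalized counts with lapatinib, 244 and 245 with vehicle, and 290 and 294 at baseline in OE19. The dose was 1 µM in OE19 and 0.5 µM in N87, and puromycin was 1.5 and 0.75 µg/mL, so line and dose cannot be told apart. In N87, 60.6% of control entries passed the sgRNA test.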

How the results depend on the processing

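The 4 counts of the comparison with baseline (19 genes enriched, 19 depleted, 1469 sgRNAs higher, 141 lower) kept within 1.5 times with TMM from the control guides, median-of-ratios factors, TMM within libraries A and B, no count filter and thinning to equal totals. Total counts only gave 753 sgRNAs higher and moved the median of all genes to -0.49, and 14 of the 19 enriched and 12 of the 19 depleted genes were shared. The default abundance trend gave 1 sgRNA higher and 0 lower. At least 200 counts gave 30 genes depleted, DESeq2 p-values 34 (sgRNAs 7248 and 1925), all 6 OE19 libraries 32 (sgRNAs 3520 and 614), and ranks below 0.25 gave 32 genes enriched. edgeR on counts summed per gene called 0 genes each way, with 4195 and 3904 genes enriched and depleted at an unadjusted p under 0.05, and limma on mean log2 counts called 902 enriched and 176 depleted. A replicate block gave 41 genes depleted and sgRNAs 4932 higher and 1310 lower. The block ended the calls of BCL2L11, EP300, TGFBR1, FBXL20, TMEM132E, DDX46, REXO1L1 and RFC5 (adjusted p from 0.0504 to 0.688). The sources do not tie a number to an infection, and deviations of same-numbered lapatinib and baseline libraries correlated with r = 0.04, so the numbers were not used to pair. Leaving out 1 library gave 9 to 19 genes enriched, 15 to 41 depleted, 1066 to 23857 sgRNAs higher and 14 to 18879 lower. The lowest count of enriched genes (9) came without lapatinib replicate 2, which left 5 of the 19 depleted genes called. ASH2L, SOD2, GPX4 and BCL2L1 among the depleted genes, and CSK, KEAP1, BAX, SLC30A1, TGFBR2, NF1, SMAD3 and TADA1 among the enriched, kept their calls whichever library was left out. Of 1188 values of named genes under these settings, 1033 stayed on their side of the threshold, 150 lost a call, 5 gained one, and 32 changed sign, none of them of a gene called with the settings of the report. Of the 32, 6 did so with total counts only. Each list median kept its side of the median of all genes under the 4 other scalings. The alternatives for the other comparisons were chosen after seeing the data. Against vehicle, 0 genes depleted became 1 with total counts only and 0 to 4 on leaving out a library, and 15 enriched became 10 to 14. For vehicle over baseline, leaving out a library gave 192 to 326 depleted and 0 to 1 enriched genes. For OE19 minus N87 it gave 3 to 6 genes higher and 0 lower. The lapatinib libraries are the shallowest, and a guide with few counts there shows only large losses.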

Other observations

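SWI/SNF is a chromatin remodeller, and none of its 18 genes was called with lapatinib. ARID1A, a subunit often mutated in gastric cancer, had 218 and 211 normalized counts with lapatinib, 73.9 and 105 with vehicle, and 137 and 131 at baseline, a log2 fold change of 0.84 ± 0.31 with lapatinib (adjusted p = 0.629) and -0.77 with vehicle (adjusted p = 0.0257). SMARCB1 had 170 and 295 with lapatinib, 81.9 and 105 with vehicle, and 134 and 133 at baseline (1.09 ± 0.51, adjusted p = 0.102). In both genes the 3 conditions did not overlap, with vehicle lowest and lapatinib highest. Both were chosen after their values were seen, and the share of all genes with such an order was not counted. The median over the list was -0.06 with lapatinib and -0.10 with vehicle.

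Of 1844 microRNA genes, hsa-mir-6087 was the 1 depleted, beside 19 of 20893 genes in all (0.0909%). None was enriched, and their median was -0.06. GAPDH, of glycolysis, had 148 and 164 normalized counts with lapatinib, 84.4 and 86.5 with vehicle, and 246 and 254 at baseline. Its log2 fold change was -0.62 ± 0.47 with lapatinib (adjusted p = 0.217) and -1.29 with vehicle (adjusted p = 3.74e-06), the lowest p for depletion of the genes tested with vehicle.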
